A study of Mus musculus with 9 samples.

Results

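Tubulin and kinesin genes were followed in 9 RNA-seq libraries labelled brain from KM mice, an outbred stock, labelled male. The members are all genes of the deposited table whose symbol begins with Tuba, Tubb or Tubg plus a number, or with Kif plus a number and at most 1 letter. These are 56 of 22192 genes, 17 tubulins and 39 kinesins, and the rule uses symbols, not measured values. The libraries fell into 3 groups of 3. The first held 18-month-old mice given 200 mg/kg of the ginseng root polysaccharide fraction GRP-E1F2 by gavage every 2 days for 4 weeks (18M GRP-E1F2). The second held 18-month-old mice given oral physiological saline on the same schedule (18M saline), and the third held 5-month-old mice given saline in the same way (5M saline). No transgene or deletion is given in the labels.

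Microtubules are hollow tubes built from pairs of alpha and beta tubulin, and gamma tubulin sits at the sites where they start to grow. Mammals carry several alpha and beta genes whose products differ mainly in the acidic tail at the end of the protein, where motors and modifying enzymes bind. Kinesins are motor proteins that walk on microtubules with cargo, shorten microtubule ends or serve in the mitotic spindle. In neurons, axons and dendrites depend on them for the supply of vesicles, mitochondria and receptors.

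Values are TPM, a transcript level scaled for gene length and library total, so levels of different genes can be set side by side. Libraries had 16715 to 16962 genes above 0, and with no counts in the table their depth is unknown. The labels do not say whether the 3 libraries of a group are separate animals, and p-values here therefore measure no more than the spread between libraries, which may be technical. Within every group 1 library took a middle place. Where the remaining pair of a group differed by 1.3-fold or more, the value fell between that pair at 91.9% of tested genes in GRP-E1F2 library 3, 91.5% in 18M saline library 2 and 89.1% in 5M saline library 3. The other arrangements gave 18.9% to 30.5%. Of 35 tested members, 35 lay between in GRP-E1F2 library 3, 26 in 18M saline library 2 and 23 in 5M saline library 3. These member counts required no 1.3-fold difference between the pair, so they cannot be set beside the shares of all tested genes. A fit without these 3 libraries, 2 per group, is given beside the results. The neuronal genes Rbfox3 and Snap25 were at 155 to 205 and 2448 to 3573 TPM. The extraction protocol speaks of retinas, and the photoreceptor genes Gnat1 and Pde6b were at most 0.230 TPM. No library exceeded 0.174 TPM for any of 4 Y-linked genes (Uty, Kdm5d, Eif2s3y, Ddx3y), which goes against the labelled sex.

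Of the 56 members, 35 averaged 1 TPM or more across the 9 libraries and were tested, 14 tubulins and 21 kinesins. The lowest tested mean was 1.16 TPM and the highest untested mean was 0.818 TPM. Means of at least 100 TPM were reached by 8 tubulins and 3 kinesins. Summed over the 17 tubulins, the level was 3966, 3577 and 3789 TPM in the 18M GRP-E1F2 libraries, 3107, 3467 and 3996 TPM in the 18M saline libraries and 3600.4, 3608 and 3617 TPM in the 5M saline libraries. Both 18M groups enclosed or overlapped the narrow 5M range, and library 3 of the 18M saline group was the highest of all. Summed kinesins were at 959, 785 and 878 TPM with GRP-E1F2, 821, 762 and 770 TPM in 18M saline and 779, 755 and 776 TPM in 5M saline. The treated libraries lay above all 5M libraries, and the 18M saline range overlapped both.

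Tubb4a, a beta tubulin prominent in myelinating oligodendrocytes and in cerebellum, was the highest member in all 6 saline libraries. With GRP-E1F2, Tuba1a, a main alpha tubulin of neurons, was the highest in all 3 libraries, and Tubb2a also stood above Tubb4a in each of them. In GRP-E1F2 library 1 Tubb2a and Tubb4a were nearly level, at 539 and 535 TPM, so their order there is not secure. The plot of tubulin levels by group shows this order.

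**Figure D1:**
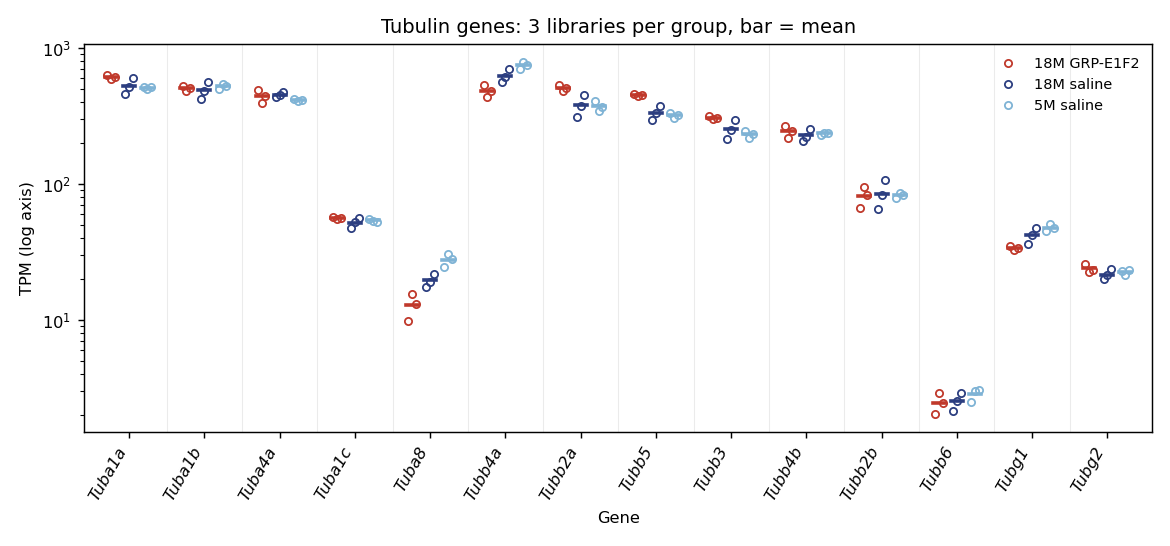
TPM (log axis) of the 14 tubulins with a mean of at least 1 TPM, for 3 libraries each of 18M GRP-E1F2, 18M saline and 5M saline; circles are libraries and bars are group means. Tubb2a, Tubb5 and Tubb3 sit higher and Tubb4a, Tuba8 and Tubg1 sit lower in the GRP-E1F2 libraries than in the 18M saline libraries, with no overlap between these groups.

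The comparison of GRP-E1F2 with saline at 18 months asked what differed between treated and untreated aged mice. Of 35 tested members, 13 passed an adjusted p of 0.05 (limma on log2(TPM + 1), Benjamini-Hochberg over all 13301 genes tested), which is 37.1%, against 20.8% of all tested genes. Rises numbered 6, in Tubb2a, Tubb5, Kif1a, Kif5a, Kif2a and Kif21b, where 7.47% of all tested genes rose. Falls numbered 7, in Tuba8, Tubb4a, Tubg1, Kif13a, Kif13b, Kif22 and Kif26b, where 13.4% of all tested genes fell. The 2 groups did not overlap at 16 of the 35 members, 45.7%, against 36.3% of all tested genes. The median log2 fold change of the 35 members was 0.06, beside -0.02 over all tested genes. Quantile normalisation gave 9 rises and 5 falls among the members in place of 6 and 7, while over all tested genes it gave 1466 rises and 1470 falls in place of 994 and 1777. With 2 libraries per group, 0 of the 35 passed in limma and 6 had an unadjusted p under 0.05, where 248 of all 13301 tested genes passed, against 2771 with all libraries. The members' count was 5 without 18M saline library 2, 5 without GRP-E1F2 library 3 and 7 without 5M saline library 3, and over all tested genes it was 1345, 1376 and 2026 in these fits.

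Of the 13 calls, 5 held when any 1 of the 9 libraries was left out, those of Tubb5, Kif21b, Kif26b, Kif22 and Kif13a. Each of these fits kept libraries that took a middle place, so they do not show that the calls rest on independent libraries. With 2 libraries per group, which left out all the middle libraries, none of the 5 passed (limma adjusted p of 0.116 to 0.253). Kif26b and Kif22 were under 1 TPM in all treated libraries and met the filter on low values only through the saline groups, where they were higher. In bulk tissue, fewer cells of a type and less RNA per cell cannot be told apart in any of these changes. Markers of other cell types moved with the same groups. The 12 genes of the cerebellar neuron list all fell with GRP-E1F2, at summed levels of 508 to 598 TPM with GRP-E1F2, 4109 to 4387 TPM in 18M saline and 6242 to 8617 TPM in 5M saline. Of the 7 genes of the mature oligodendrocyte list, 4 fell, at summed levels of 5487 to 5678 TPM with GRP-E1F2, 6082 to 7369 TPM in 18M saline and 9009 to 9592 TPM in 5M saline. Of the 6 tested genes of the newborn neuron list, 5 rose, at 107 to 141 TPM with GRP-E1F2, 49.8 to 66.9 TPM in 18M saline and 69.9 to 91.5 TPM in 5M saline over its 7 genes. No gene of these 3 lists was at 0 in any library, and their part in the changes of tubulins and kinesins was not tested.

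Among the beta tubulins Tubb2a and Tubb5 rose and Tubb4a fell with GRP-E1F2. The stretches below show the coding end of beta tubulin isotypes, and no stretch elsewhere was compared in this way. They run from coding base 1270, counted from the first base of the start codon, to the last base before the stop codon, 5′ to 3′, from the GENCODE M21 transcripts on GRCm38. Capitals mark bases that differ from Tubb2a at the same count, with no gaps allowed, so a shifted stretch shows as a run of capitals.
Tubb2a, chr13:34074471-34074536, minus strand: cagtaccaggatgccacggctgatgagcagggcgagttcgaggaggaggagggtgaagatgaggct
Tubb5, chr17:35834985-35835047, minus strand: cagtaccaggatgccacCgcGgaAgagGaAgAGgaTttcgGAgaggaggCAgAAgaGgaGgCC
Tubb3, chr8:123421599-123421679, plus strand: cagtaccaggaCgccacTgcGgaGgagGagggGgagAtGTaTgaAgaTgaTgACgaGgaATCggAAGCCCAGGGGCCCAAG
Tubb4b, chr2:25222311-25222376, minus strand: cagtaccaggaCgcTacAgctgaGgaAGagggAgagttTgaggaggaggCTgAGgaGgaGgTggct
Tubb4a, chr17:57080693-57080755, minus strand: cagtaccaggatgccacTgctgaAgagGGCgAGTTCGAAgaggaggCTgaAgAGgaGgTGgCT
Counted in this way, between 15 and 36 bases of the other ends were marked. The Tubb3 end has 81 bases against 66 in Tubb2a, and its bases past that length are marked as well. The counts therefore include shifts and added length, not only changed bases. Over the whole coding sequence, Tubb2a was 84.5% identical to Tubb5, 83.2% to Tubb3 and 84.0% to Tubb4a, with identical runs of at most 53 bases. Tubb2a and its neighbour Tubb2b were 96.5% identical with an identical run of 551 bases, so reads could have been split between them and both levels are uncertain.

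Tubb5, the beta tubulin found in most cell types, was at 457, 443 and 451 TPM in the GRP-E1F2 libraries, against 297, 331 and 377 TPM in the 18M saline libraries. All 3 treated libraries stood above the highest saline library. The log2 fold change was 0.43 ± 0.08 (SE), with an adjusted p of 0.00697 in limma. The adjusted p was at most 0.0331 when any 1 library was left out, and 0.241 with 2 libraries per group.

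Tubb2a, a major beta tubulin of mature neurons, was at 539, 482 and 512 TPM with GRP-E1F2 and at 310.2, 372 and 455 TPM in 18M saline. No treated library overlapped the saline range, but the saline libraries were spread over a wide range. The log2 fold change was 0.45 ± 0.13 (SE; limma adjusted p = 0.0358; 0.395 with 2 libraries per group). The call was lost without GRP-E1F2 library 1 (0.0839) or 3 (0.106), 18M saline library 1 (0.065) or 2 (0.107), or 5M saline library 3 (0.061).

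Tubb4a went the other way, at 535, 435 and 487 TPM with GRP-E1F2 and 563, 617 and 704 TPM in 18M saline. The groups did not overlap, although GRP-E1F2 library 1 came close to the lowest saline library. The fall was -0.37 ± 0.10 on the log2 scale (SE; limma adjusted p = 0.0302; 0.373 with 2 libraries per group). It was lost without GRP-E1F2 library 2 (0.0744) or 3 (0.0906), 18M saline library 2 (0.0869) or 3 (0.0772), or 5M saline library 3 (0.0536).

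Tubb3, the neuron-specific beta tubulin used as a neuronal marker, was at 314, 302 and 306 TPM with GRP-E1F2 and 215, 248 and 297 TPM in 18M saline. The groups did not overlap, yet the difference did not pass, with a log2 fold change of 0.29 ± 0.10 (SE) and a limma adjusted p of 0.0783. Without 18M saline library 3, the highest of its group, it passed (0.41, adjusted p = 0.0108). The remaining beta tubulins overlapped between these groups. Tubb4b, a widely used isotype that also builds cilia, averaged 244 ± 24.6 TPM with GRP-E1F2 and 229 ± 23.9 TPM in 18M saline (SD, n = 3 each). Tubb2b, known for its part in cortical development, averaged 81.7 ± 14.7 and 85.1 ± 20.9 TPM in the same 2 groups, and Tubb6, a minor isotype in brain, 2.45 ± 0.44 and 2.52 ± 0.37 TPM.

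Expressed as shares of the summed beta tubulin TPM, Tubb4a, Tubb2a, Tubb5 and Tubb3 separated the treated libraries from all saline libraries. Tubb4a made up 24.5%, 22.0% and 23.3% with GRP-E1F2, 33.9%, 32.8% and 32.0% in 18M saline and 35.2%, 39.96% and 37.5% in 5M saline. Its share was lowest in the treated group and highest in the 5M group, and no 2 groups overlapped. Tubb2a held 24.7%, 24.3% and 24.5% with GRP-E1F2, against 18.7%, 19.8% and 20.7% in 18M saline and 20.3%, 17.3% and 18.5% in 5M saline. Here the treated libraries stood apart, while the saline groups overlapped. Tubb5 held 20.96%, 22.4% and 21.6% with GRP-E1F2, 17.9%, 17.6% and 17.2% in 18M saline and 16.6%, 15.3% and 16.2% in 5M saline, with no overlap between groups. Shares add up to a whole, so 1 isotype can rise in share because another fell, and these values were not tested.

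**Figure D2:**
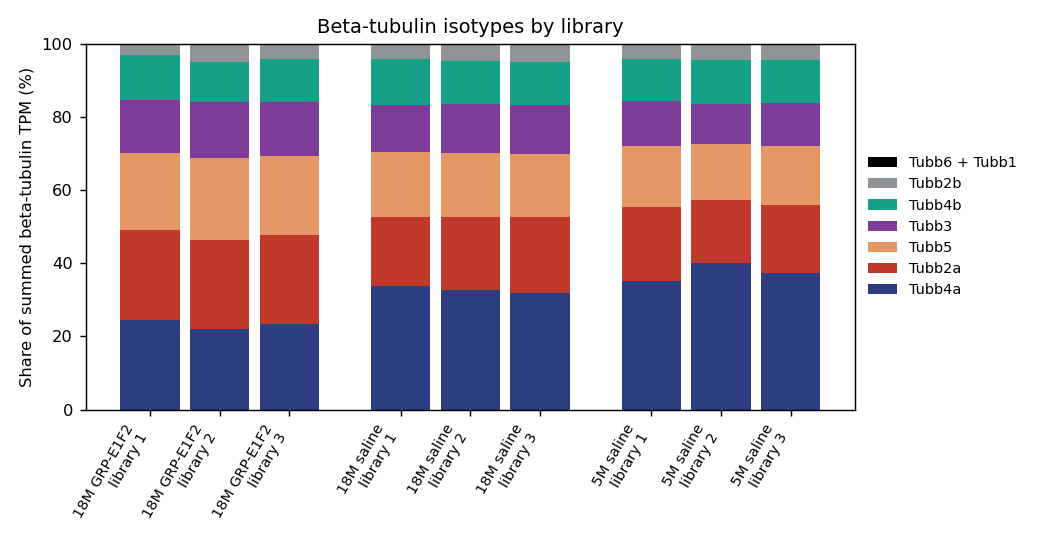
Share (%) of each beta tubulin gene in the summed beta tubulin TPM, 1 stacked bar per library, with 18M GRP-E1F2 on the left, 18M saline in the middle and 5M saline on the right. The Tubb4a block is 22.0% to 24.5% in the GRP-E1F2 libraries, 32.0% to 33.9% in 18M saline and 35.2% to 39.96% in 5M saline.

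The 250 bases before the start of the 2 beta tubulins that rose and of the 1 that fell are shown because these genes moved apart within 1 family. They are RefSeq sequence on GRCm38.p6, 5′ to 3′ on the gene's strand. Capitals mark 3 promoter motifs, each searched on both strands: the TATA box, spelled TATAAA, then the box named after its letters, CCAAT, and lastly the GC box, spelled GGGCGG. The matches do not overlap each other in these windows.
Tubb2a, chr13:34078009-34078258, minus strand: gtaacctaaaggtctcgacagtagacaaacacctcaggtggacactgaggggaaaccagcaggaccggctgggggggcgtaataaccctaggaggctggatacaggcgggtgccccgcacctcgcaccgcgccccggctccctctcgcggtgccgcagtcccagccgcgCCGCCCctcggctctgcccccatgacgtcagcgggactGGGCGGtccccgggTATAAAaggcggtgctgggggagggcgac
Tubb5, chr17:35838302-35838551, minus strand: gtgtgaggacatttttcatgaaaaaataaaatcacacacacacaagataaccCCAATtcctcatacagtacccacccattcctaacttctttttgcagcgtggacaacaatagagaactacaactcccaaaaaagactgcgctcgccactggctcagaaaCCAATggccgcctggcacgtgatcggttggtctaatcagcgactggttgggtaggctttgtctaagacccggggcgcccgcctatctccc
Tubb4a, chr17:57087601-57087850, minus strand: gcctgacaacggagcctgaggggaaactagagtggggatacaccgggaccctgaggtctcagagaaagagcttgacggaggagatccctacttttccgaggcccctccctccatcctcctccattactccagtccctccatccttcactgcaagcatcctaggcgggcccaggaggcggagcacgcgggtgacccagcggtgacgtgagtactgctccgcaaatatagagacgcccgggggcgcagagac
The Tubb2a window held a TATA box beginning 29 bases before the start and 2 GC boxes, and the Tubb5 window held 2 CCAAT boxes. None of the 3 motifs was in the Tubb4a window. Of all 32851 windows of this length, 12.4% held a TATA box, 33.8% a CCAAT box and 32.7% a GC box. Among 49 windows of 45 matched members, 6, 22 and 28 held them.

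Of the 5 tested alpha tubulins, 1 passed between the 18M groups. Tuba1a was at 634, 589 and 616 TPM with GRP-E1F2 and 461, 518 and 609 TPM in 18M saline. The groups overlapped at 18M saline library 3, and the log2 fold change of 0.22 ± 0.09 (SE) did not pass (limma adjusted p = 0.115). It did so without that library (0.33, adjusted p = 0.0124). Tuba1b, an alpha tubulin of most cells, averaged 510 ± 21.8 TPM with GRP-E1F2 and 492 ± 69.9 TPM in 18M saline (SD, n = 3 each). Tuba4a, which unlike Tuba1a encodes no terminal tyrosine, averaged 445 ± 48.9 and 454 ± 19.3 TPM in these groups. Tuba1c, a minor copy in brain, averaged 56.2 ± 1.27 and 52.0 ± 4.27 TPM. Tuba1a, Tuba1b and Tuba1c were 97.1% to 98.3% identical in pairs over the coding sequence, with identical runs of 281 to 468 bases, so their levels are uncertain against each other. Exons of Tuba1a and Tuba1b also overlap Gm49450 on the same strand, so reads could have been split with it.

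Tuba8, a divergent alpha tubulin at 78.8% identity to Tuba1a, was the only alpha tubulin that passed. It was at 9.82, 15.6 and 13.1 TPM with GRP-E1F2, 17.6, 19.1 and 21.9 TPM in 18M saline and 24.5, 30.4 and 28.2 TPM in 5M saline. No 2 groups overlapped, and the GRP-E1F2 libraries were the lowest. The fall against 18M saline was -0.59 ± 0.15 on the log2 scale (SE; limma adjusted p = 0.0268; 0.307 with 2 libraries per group), and it was lost without GRP-E1F2 library 3 (0.0727) or 18M saline library 2 (0.0796) or 3 (0.0794). Its exons overlap an antisense gene, and the sources do not state how strand was handled.

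Of the gamma tubulins, Tubg1, the main nucleating copy, was at 34.8, 32.8 and 33.5 TPM with GRP-E1F2 and 36.2, 42.4 and 47.4 TPM in 18M saline. The groups did not overlap, with little room between the highest treated and the lowest saline library. Its fall of -0.30 ± 0.09 (SE; limma adjusted p = 0.0474; 0.488 with 2 libraries per group) had the highest adjusted p of the 13 calls. It was lost in 8 of the 9 fits with 1 library left out, those other than without 18M saline library 1, with adjusted p of 0.055 to 0.142. It was also lost under median-of-ratios scaling (0.0743) and quantile normalisation (0.0622). Tubg2, a brain-enriched copy 93.3% identical to Tubg1, averaged 23.9 ± 1.72 TPM with GRP-E1F2 and 21.5 ± 1.79 TPM in 18M saline (SD, n = 3 each), and the groups overlapped.

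Among kinesins, transport motors of neurons made up most of the TPM. Kif5a, the neuronal heavy chain of conventional kinesin, was at 415, 331 and 375 TPM in the GRP-E1F2 libraries, 315, 294 and 300.5 TPM in 18M saline and 271, 235 and 257 TPM in 5M saline. No 2 groups overlapped, and the treated libraries were the highest. The rise over 18M saline was 0.30 ± 0.09 on the log2 scale (SE; limma adjusted p = 0.0408; 0.489 with 2 libraries per group). It was lost without GRP-E1F2 library 1 (0.0971) or 3 (0.125), any of 18M saline libraries 1 (0.0506), 2 (0.137) and 3 (0.0864), or 5M saline library 3 (0.0702).

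The sister heavy chains Kif5b, used in most tissues, and Kif5c, enriched in neurons, showed no such rise. Kif5b was at 25.9, 21.2 and 23.1 TPM with GRP-E1F2 and 30.1, 25.8 and 24.6 TPM in 18M saline, and Kif5c averaged 97.9 ± 13.4 and 107 ± 11.9 TPM (SD, n = 3 each). Neither passed (limma adjusted p = 0.195 and 0.432), and both groups overlapped. Kif5a made up 75.1% to 75.8% of the summed TPM of these 3 chains with GRP-E1F2, 67.7% to 71.2% in 18M saline and 62.3% to 67.4% in 5M saline. Kif5a and the other chains were 61.5% and 67.3% identical over the coding sequence, with identical runs of at most 23 bases.

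**Figure D3:**
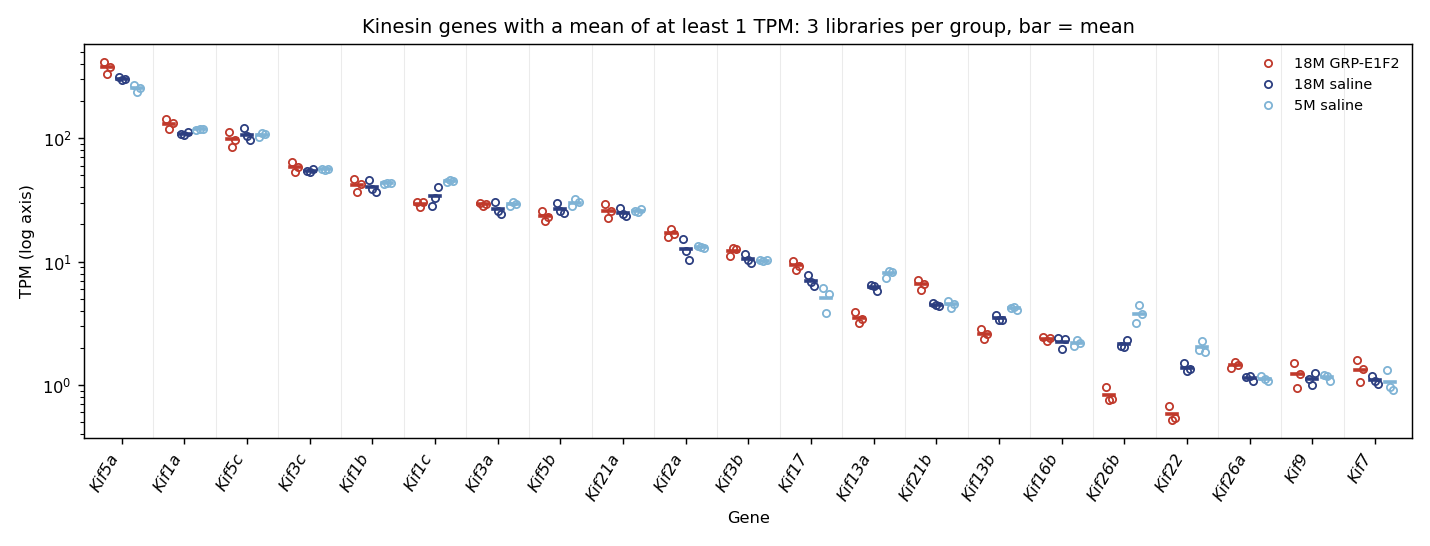
TPM (log axis) of the 21 kinesins with a mean of at least 1 TPM, for 3 libraries each of 18M GRP-E1F2, 18M saline and 5M saline; circles are libraries and bars are group means. Kif5a is the highest at 235 to 415 TPM, and Kif13a, Kif26b and Kif22 are lowest with GRP-E1F2, higher in 18M saline and highest in 5M saline.

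Kif21b, a dendrite-enriched motor that also restrains microtubule growth, had the largest rise among members. It was at 7.07, 5.92 and 6.62 TPM with GRP-E1F2 and 4.58, 4.43 and 4.35 TPM in 18M saline. The lowest treated library stood well above the highest saline library. The log2 fold change was 0.46 ± 0.08 (SE; limma adjusted p = 0.00426), with an adjusted p of at most 0.0261 when any 1 library was left out and 0.253 with 2 libraries per group. Its relative Kif21a, an axonal motor that is mutated in human eye muscle fibrosis, averaged 25.8 ± 3.31 TPM with GRP-E1F2 and 24.9 ± 2.08 TPM in 18M saline (SD, n = 3 each), and the groups overlapped.

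Kif1a, the carrier of synaptic vesicle precursors, was at 142, 118 and 132 TPM with GRP-E1F2 and 107, 106 and 113 TPM in 18M saline. All treated libraries were above all saline libraries, and GRP-E1F2 library 2 was the treated library nearest to saline. The rise was 0.26 ± 0.07 on the log2 scale (SE; limma adjusted p = 0.0283; 0.480 with 2 libraries per group), lost without GRP-E1F2 library 1 (0.0651) or 3 (0.104), 18M saline library 1 (0.0546) or 2 (0.106), or 5M saline library 3 (0.0543). Kif2a, which takes microtubule ends apart and trims axon branches, was at 15.8, 18.3 and 16.9 TPM with GRP-E1F2 and 15.2, 12.1 and 10.4 TPM in 18M saline. The groups came close but did not overlap. Its rise was 0.42 ± 0.12 (SE; limma adjusted p = 0.0344; 0.413 with 2 libraries per group), lost without GRP-E1F2 library 2 (0.0839) or 3 (0.0999), 18M saline library 2 (0.112) or 3 (0.0771), or 5M saline library 3 (0.059). Its exons overlap the opposite-strand gene Dimt1.

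The remaining neuronal transport motors did not pass between the 18M groups. Kif17, a dendritic motor for NMDA receptor cargo that also enters cilia, came nearest. It was at 10.2, 8.60 and 9.12 TPM with GRP-E1F2 and 7.81, 6.77 and 6.36 TPM in 18M saline, with no overlap, and its log2 fold change of 0.37 ± 0.14 (SE) had a limma adjusted p of 0.0976. Without 5M saline library 2 the adjusted p was 0.0312. Its exons overlap Sh2d5 on the same strand, so reads could have been split between them. Kif3a and Kif3b, which pair as a motor of vesicle and ciliary transport, averaged 29.1 ± 0.77 and 12.2 ± 0.94 TPM with GRP-E1F2, against 26.8 ± 3.04 and 10.5 ± 0.92 TPM in 18M saline (SD, n = 3 each). Both overlapped between these groups, and both passed without 18M saline library 1 (limma adjusted p = 0.0389 and 0.0385). Kif3c, a neuronal relative, averaged 58.4 ± 5.76 and 54.6 ± 1.57 TPM, and Kif1b, a carrier of mitochondria and vesicle precursors, 41.8 ± 4.91 and 40.4 ± 4.76 TPM in the same 2 groups.

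The 4 kinesins that fell with GRP-E1F2 were all low in level. Kif26b, an atypical kinesin of cell adhesion and polarity, was at 0.955, 0.755 and 0.776 TPM with GRP-E1F2, 2.07, 2.02 and 2.31 TPM in 18M saline and 3.15, 4.44 and 3.76 TPM in 5M saline. No 2 groups overlapped, and all treated libraries were under 1 TPM, so it met the filter only through the saline groups. The log2 fold change against 18M saline was -0.78 ± 0.11 (SE; limma adjusted p = 0.00161; at most 0.0112 without any 1 library; 0.127 with 2 libraries per group). On this scale, log2(TPM + 1), the change of such low genes is understated, and the ratio of means was 0.389. Its exons overlap an antisense gene.

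Kif13a, a vesicle motor of endosome traffic, was at 3.89, 3.18 and 3.43 TPM with GRP-E1F2, 6.51, 6.28 and 5.80 TPM in 18M saline and 7.38, 8.45 and 8.24 TPM in 5M saline. The groups formed 3 separate steps. Against 18M saline its log2 fold change was -0.68 ± 0.09 (SE; limma adjusted p = 0.000926; at most 0.00713 without any 1 library; 0.116 with 2 libraries per group). Its relative Kif13b, which carries membrane lipids and scaffold proteins, was at 2.85, 2.37 and 2.61 TPM with GRP-E1F2 and 3.69, 3.36 and 3.36 TPM in 18M saline. These did not overlap, and the fall of -0.31 ± 0.08 (SE; limma adjusted p = 0.0237; 0.419 with 2 libraries per group) was lost without GRP-E1F2 library 2 (0.0599) or 3 (0.0873) or 18M saline library 2 (0.0702).

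Kif22, a chromosome-arm motor of the mitotic spindle, was the only one of 11 mitotic kinesins that averaged 1 TPM or more. It was at 0.679, 0.517 and 0.540 TPM with GRP-E1F2, 1.51, 1.29 and 1.35 TPM in 18M saline and 1.93, 2.29 and 1.87 TPM in 5M saline. No 2 groups overlapped, and it passed the filter through the saline groups. The fall against 18M saline was -0.59 ± 0.09 (SE; limma adjusted p = 0.00273; at most 0.0183 without any 1 library; 0.185 with 2 libraries per group). Its exons overlap an antisense gene. Of the 6 genes of the dividing cell list, Mki67 was at most 0.132 TPM in any library. The list summed to 55.4 to 58.5 TPM with GRP-E1F2, 61.7 to 66.4 TPM in 18M saline and 70.1 to 72.9 TPM in 5M saline. Its mean log2(TPM + 1), which weighs its genes more evenly, did not follow that order. That mean was 1.457 to 1.464 with GRP-E1F2, 1.39 to 1.55 in 18M saline and 1.32 to 1.43 in 5M saline. Of its 2 tested genes, 1 fell with GRP-E1F2 against 18M saline, and with age 1 rose and 1 fell. The part of dividing cells was not tested. Kif1c, a carrier of dense vesicles, averaged 29.5 ± 1.65 TPM with GRP-E1F2 and 33.7 ± 5.94 TPM in 18M saline (SD, n = 3 each) and did not pass (limma adjusted p = 0.295). The cerebellar neuron and oligodendrocyte lists stepped down over the same groups as Kif26b, Kif13a and Kif22, as the plot of these members beside the marker lists shows. So did the astrocyte list, with summed levels of 330 to 362 TPM with GRP-E1F2, 395 to 419 TPM in 18M saline and 517 to 597 TPM in 5M saline. The part of these cell types was not tested.

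**Figure D4:**
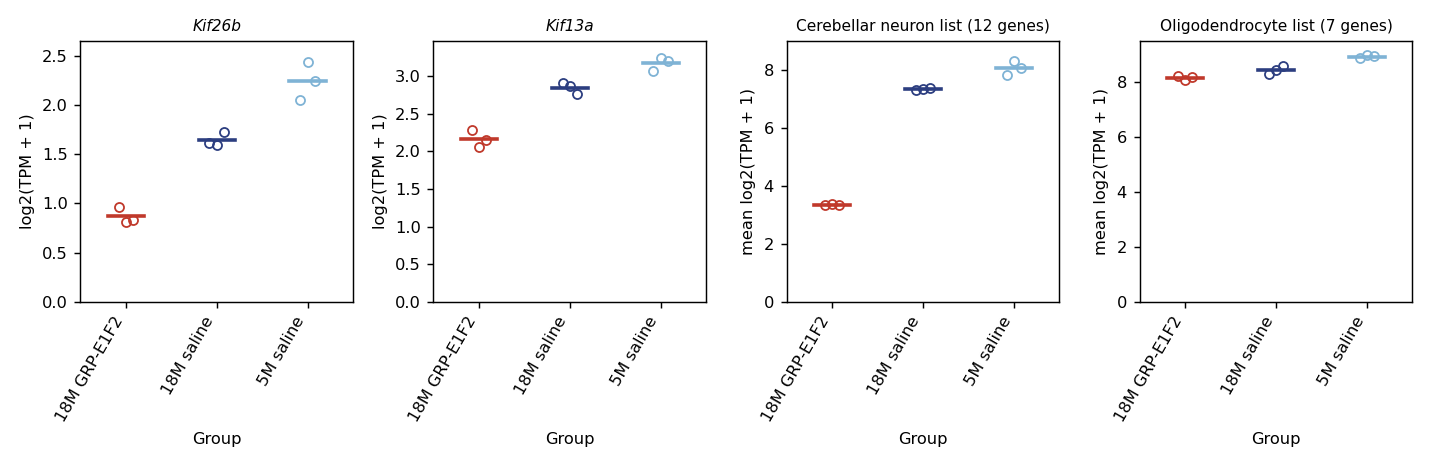
Level of Kif26b and Kif13a, log2(TPM + 1), and mean log2(TPM + 1) of 12 cerebellar neuron and 7 oligodendrocyte marker genes, in 3 libraries each of 18M GRP-E1F2, 18M saline and 5M saline; circles are libraries and bars are group means. All 4 are lowest with GRP-E1F2 and highest in 5M saline, and the cerebellar list drops furthest.

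The comparison of 18M with 5M saline asked what differed with age. Of the 35 tested members, 4 passed an adjusted p of 0.05 in limma, which is 11.4%, against 16.7% of all tested genes. All 4 were kinesins that fell, Kif26b, Kif1c, Kif22 and Kif13a. Over all tested genes 5.48% rose and 11.2% fell. None of the 14 tested tubulins passed, and 2 of them, Tuba8 and Tubb4a, had an unadjusted p under 0.05. The median log2 fold change of the members was -0.05, and that of all tested genes was -0.05 as well. Median-of-ratios scaling gave 1 rise, of Kif5a, and 3 falls. The cerebellar neuron list fell at 11 of its 12 genes and the oligodendrocyte list at 6 of its 7 in this comparison, the astrocyte list at 4 of 6 and the choroid plexus list at 3 of 5. The neuron list had 1 rise and 3 falls of 7, and the newborn neuron list 2 rises and 2 falls of 6 tested genes. Microglia genes rose at 2 of 5, while 0 of 8 striatal, 0 of 6 ciliated and 0 of 5 pituitary genes passed. The part of these cell types was not tested.

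Kif1c was at 28.3, 32.7 and 40.1 TPM in 18M saline and 43.8, 46.0 and 45.0 TPM in 5M saline. All aged libraries were below all young ones, and library 3 of the aged group came nearest to the young. The log2 fold change was -0.42 ± 0.11 (SE; limma adjusted p = 0.0336; 0.468 with 2 libraries per group). From the values given above, Kif26b fell by 0.60 ± 0.11 (limma adjusted p = 0.0115; 0.402 with 2 libraries per group), Kif22 by 0.34 ± 0.09 (0.0378; 0.521) and Kif13a by 0.33 ± 0.09 (0.0354; 0.524), each on the log2 scale with its SE. Kif26b lost its call without 18M saline library 2 (0.0605) or 5M saline library 3 (0.055). Kif1c, Kif22 and Kif13a lost theirs in 6 to 7 of the 9 fits, among them all 3 without 18M saline library 1 or 2, 5M saline library 2 or 3, or GRP-E1F2 library 3, with adjusted p of 0.0512 to 0.138. The count of members that passed was 0 without 18M saline library 2, 0 without 5M saline library 3, 1 without 18M saline library 1, 1 without 5M saline library 2 and 1 without GRP-E1F2 library 3. Over all tested genes it was 379, 371, 1330, 635 and 1172 in these fits, against 2217 with all libraries. With 2 libraries per group, 0 members passed in limma and 1 had an unadjusted p under 0.05, where 3 of all tested genes passed.

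Among the tubulins that rose with GRP-E1F2 or stood highest there, the ages differed little. Tubb5 averaged 335 ± 40.3 TPM in 18M saline and 321 ± 14.1 TPM in 5M saline, Tubb2a 379 ± 72.6 and 374 ± 31.3 TPM, and Tuba1a 529 ± 74.6 and 512 ± 7.90 TPM (SD, n = 3 each). For each of these the spread between the 18M libraries was wider than the difference. Tubb4a was at 563, 617 and 704 TPM in 18M saline and 706, 797 and 750.4 TPM in 5M saline. The groups did not overlap but nearly met, and its log2 fold change of -0.26 ± 0.10 (SE) had a limma adjusted p of 0.0970. Without 18M saline library 3 it passed (-0.35, adjusted p = 0.0400). Tuba8 had the largest difference of the tubulins, at 17.6, 19.1 and 21.9 TPM in 18M saline and 24.5, 30.4 and 28.2 TPM in 5M saline. The aged libraries were all below the young ones, with a log2 fold change of -0.48 ± 0.15 (SE; limma adjusted p = 0.0588). It passed without GRP-E1F2 library 1 (0.0225) or 2 (0.0335), with a pseudocount of 5 TPM (0.0467), with the replicate block (0.0240) and in a fit of only these groups (0.0292).

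Members whose 18M and 5M saline libraries did not overlap numbered 11 of 35, 31.4%, against 41.5% of all tested genes. Among those that did not pass were Tuba8 and Tubb4a, lower at 18 months, and Kif5a, higher at 18 months with a log2 fold change of 0.25 ± 0.09 (SE; limma adjusted p = 0.0753), and Kif17, with 0.40 ± 0.14 (0.0816). Kif5a and Kif17 lay above every 5M library in all 3 aged libraries. Kif5a passed without GRP-E1F2 library 1 (0.0439) or 2 (0.0385), and Kif17 passed without 5M saline library 1 (0.0410). The values of the 18M saline libraries enter both this comparison and the one with GRP-E1F2, so the 2 comparisons are not independent.

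**Figure D5:**
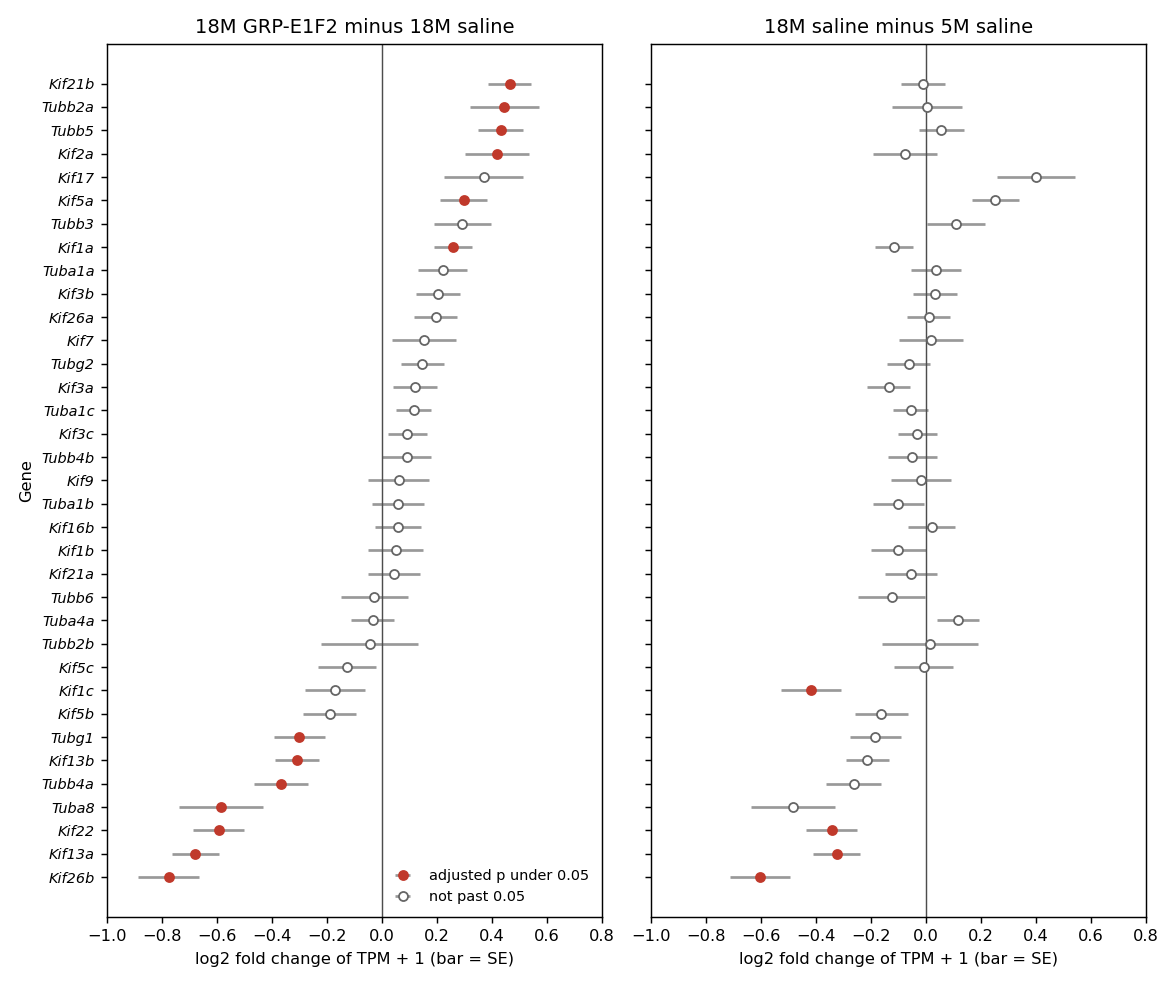
Log2 fold change of TPM + 1 with its SE for the 35 tested members, 18M GRP-E1F2 minus 18M saline on the left and 18M saline minus 5M saline on the right, ordered by the left panel; filled points passed an adjusted p of 0.05 in limma. On the left 13 members pass, 6 above and 7 below 0, and on the right 4 pass, all below 0; the panels share the 18M saline libraries.

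Set against 5M saline, the 18M GRP-E1F2 libraries differ in both age and treatment. Of the 35 tested members, 18 passed in limma, 51.4%, against 46.6% of all tested genes, with 9 rises and 9 falls, where 17.2% of all tested genes rose and 29.4% fell. The groups did not overlap at 19 members, 54.3%, against 61.4% of all tested genes. The rises were in Tuba1a, Tubb2a, Tubb5, Tubb3, Kif3b, Kif5a, Kif17, Kif21b and Kif2a. The falls were in Tuba8, Tubb4a, Tubg1, Kif5b, Kif1c, Kif13a, Kif13b, Kif22 and Kif26b. The median log2 fold change of the members was 0.04, beside -0.07 over all tested genes. With 2 libraries per group, 5 passed, all falls: Kif26b, Tuba8, Kif22, Kif13a and Tubb4a, where 520 of all 13301 tested genes rose and 1193 fell. In this comparison 12 of 12 cerebellar neuron genes, 7 of 7 oligodendrocyte genes and 5 of 6 astrocyte genes fell, the sixth rising, while 5 of 5 microglia genes, 5 of 6 newborn neuron genes and 4 of 8 striatal neuron genes rose. Of the 7 genes of the neuron list 1 rose and 4 fell, and the part of these cell types was not tested.

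Kif26b showed the largest fall, with 0.829 ± 0.11 TPM in 18M GRP-E1F2 and 3.78 ± 0.65 TPM in 5M saline (SD, n = 3 each; log2 fold change -1.38 ± 0.11, SE; limma adjusted p = 2.29e-05; 0.0089 with 2 libraries per group). Tuba8 followed with 12.8 ± 2.89 and 27.7 ± 3.00 TPM in the same 2 groups (-1.07 ± 0.15; adjusted p = 0.000575; 0.0304). Kif13a had 3.50 ± 0.36 and 8.02 ± 0.57 TPM (-1.004 ± 0.09; adjusted p = 3.45e-05; 0.0133). Kif22 was lower by -0.94 ± 0.09 on the log2 scale (adjusted p = 7.83e-05; 0.0187 with 2 libraries per group) and Tubb4a by -0.63 ± 0.10 (0.000963; 0.0487). These 5 also passed without any 1 library. Kif26b and Kif22 were under 1 TPM in all treated libraries and met the filter on low values only through the saline groups. The filter was taken from all 9 libraries in these fits too, so they cannot probe that selection.

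Kif17 had the largest rise, at 9.30 ± 0.81 TPM with GRP-E1F2 and 5.11 ± 1.18 TPM in 5M saline (SD, n = 3 each; log2 fold change 0.77 ± 0.14, SE; limma adjusted p = 0.00222; 0.0540 with 2 libraries per group). Kif5a rose by 0.55 ± 0.09 (adjusted p = 0.000987; 0.0518 with 2 libraries per group), Tubb5 by 0.49 ± 0.08 (0.00134; 0.0634), Kif21b by 0.45 ± 0.08 (0.00175; 0.102) and Tubb3 by 0.40 ± 0.10 (0.0117; 0.155). Each of these 5 rises passed without any 1 library. The rise of Tubb2a, 0.45 ± 0.13 (adjusted p = 0.0166; 0.182), was lost without 5M saline library 2 (0.0627) or 3 (0.0503).

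The other 3 rises were smaller and less secure, with Tuba1a at 0.26 ± 0.09 (limma adjusted p = 0.0418; 0.290 with 2 libraries per group), Kif2a at 0.34 ± 0.12 (0.0381; 0.282) and Kif3b at 0.24 ± 0.08 (0.0361; 0.363). All 3 were lost without 18M saline library 2, GRP-E1F2 library 2 or 3, or any of the 5M saline libraries, with adjusted p of 0.0517 to 0.123. Tuba1a was also lost without GRP-E1F2 library 1 (0.0990). Among the other falls, Kif1c was lower by -0.59 ± 0.11 (0.00221; 0.0648), Kif13b by -0.52 ± 0.08 (0.000743; 0.0630), Tubg1 by -0.49 ± 0.09 (0.0026; 0.0863) and Kif5b by -0.35 ± 0.10 (0.0151; 0.196). Kif5b lost its call without 5M saline library 2 (0.0586).

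The 21 untested members were 3 tubulins and 18 kinesins, and 1 of them, the depolymerising kinesin Kif2b, was listed at 0 in every library. Tuba3a, Tuba3b and Tubb1, tubulins known from testis and from platelets, were at most 0.253 TPM. Most of the untested kinesins serve mitosis or cilia, and apart from Kif18a none exceeded 1.13 TPM in any library. Kif20a, a motor of cell division, averaged 0.771 ± 0.10 TPM with GRP-E1F2, 0.763 ± 0.09 TPM in 18M saline and 0.797 ± 0.03 TPM in 5M saline (SD, n = 3 each). Of the tested ciliary kinesins besides Kif17, Kif9 averaged 1.23 ± 0.29, 1.13 ± 0.12 and 1.15 ± 0.07 TPM and Kif7, a regulator of Hedgehog signalling, 1.33 ± 0.26, 1.09 ± 0.08 and 1.07 ± 0.23 TPM in these groups. Neither passed in any of the 3 comparisons. Nor did Kif26a, a relative of Kif26b, at 1.45 ± 0.08, 1.14 ± 0.05 and 1.12 ± 0.05 TPM, or Kif16b, an endosome motor, at 2.36 ± 0.09, 2.23 ± 0.24 and 2.18 ± 0.13 TPM. For Kif26a the treated libraries stood above all saline libraries, with limma adjusted p of 0.107 against 18M saline and 0.0548 against 5M saline.

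Kif18a, which limits chromosome movement in mitosis, stood out among the low genes. It was at 0.367, 0.361 and 0.362 TPM with GRP-E1F2, 1.17, 1.47 and 1.27 TPM in 18M saline and 0.153, 0.119 and 0.145 TPM in 5M saline. No 2 groups overlapped, and the 18M saline group was high. It was under the filter, and in a fit of all 22192 genes its log2 fold change was -0.75 ± 0.04 for GRP-E1F2 against 18M saline (SE; limma adjusted p = 0.000293) and 1.01 ± 0.04 for 18M against 5M saline (0.000127). Its exons overlap Mettl15 on the opposite strand, and the sources do not state how strand was handled, so the reads of these genes cannot be told apart. Exons of 20 of the 55 members found in GENCODE M21 are overlapped by another gene.

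Other genes of the microtubule system were taken as a list of 105, covering associated proteins, kinesin adaptors, dynein and dynactin, and the folding and modification of tubulin, of which 102 were tested. With GRP-E1F2 against 18M saline 10 rose and 7 fell, 16.7% of those tested, against 20.8% of all genes and 37.1% of tubulins and kinesins. These shares were not tested against each other. Between 18M and 5M saline 3 rose and 9 fell, 11.8% against 16.7% of all tested genes. Between 18M GRP-E1F2 and 5M saline 17 rose and 20 fell, 36.3% against 46.6%. The list's median log2 fold changes were 0.02, -0.06 and -0.04 in these 3 comparisons, beside -0.02, -0.05 and -0.07 over all tested genes.

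Agbl4, which removes glutamates from tubulin tails, was at 10.1, 7.99 and 8.55 TPM with GRP-E1F2, 6.18, 6.39 and 5.86 TPM in 18M saline and 5.00, 4.27 and 4.37 TPM in 5M saline. No 2 groups overlapped. It rose with GRP-E1F2 (0.46 ± 0.09 on the log2 scale, SE; limma adjusted p = 0.00937; 0.226 with 2 libraries per group) and with age (0.37 ± 0.09; 0.0326; 0.529). Ttll1, part of an enzyme that adds glutamates, rose by 0.23 ± 0.05 with GRP-E1F2 (0.0195; 0.513) and by 0.27 ± 0.05 with age (0.0152; 0.425). Dynll1, a light chain of dynein and of other complexes, rose by 0.39 ± 0.07 with GRP-E1F2 (0.00576; 0.239) and by 0.32 ± 0.07 with age (0.0215; 0.455). Map9, a spindle and ciliary microtubule protein, and Dctn3, a dynactin subunit, both rose by 0.49 with GRP-E1F2 (SE 0.12 and 0.14; 0.0190 and 0.0348; 0.357 and 0.414), while Dctn3 fell with age (-0.49 ± 0.14; 0.0418; 0.472). Kifc2, a minus-end motor of neurons, passed in the comparison of 18M GRP-E1F2 with 5M saline (0.78 ± 0.13; 0.00146; 0.0525).

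Among the falls, Mtus1, a microtubule-binding tumour suppressor product, was at 11.9, 17.7 and 15.8 TPM with GRP-E1F2, 32.9, 33.1 and 32.8 TPM in 18M saline and 42.3, 54.96 and 48.7 TPM in 5M saline. Its groups formed 3 separate steps, with log2 fold changes of -1.09 ± 0.14 with GRP-E1F2 (SE; limma adjusted p = 0.000797; 0.0532 with 2 libraries per group) and -0.54 ± 0.14 with age (0.0300; 0.429). Dynlt1b, a dynein light chain, fell by 1.09 ± 0.17 with GRP-E1F2 (0.0027; 0.129) and by 0.66 ± 0.17 with age (0.0326; 0.408). Tppp3, which bundles microtubules, fell by 0.52 ± 0.13 with GRP-E1F2 (0.0198; 0.327) and by 0.61 ± 0.13 with age (0.0162; 0.384). Kifc1, a minus-end motor of the spindle, fell by 0.58 ± 0.11 with GRP-E1F2 (0.00748; 0.241). It is a low gene, with log2 fold changes of -1.12 to -0.19 over the alternatives. Like Kif26b and Kif22 it met the filter on low values through the saline groups, where it was higher. Leaving out 1 library ended each of the age calls named here, among them without 18M saline library 2 and without 5M saline library 3, with adjusted p of up to 0.134. For GRP-E1F2 against 18M saline it ended the calls of Ttll1, Map9, Dctn3 and Tppp3, all 4 of them without 18M saline library 2 (0.0841, 0.0626, 0.114 and 0.0747) or GRP-E1F2 library 3 (0.0945, 0.0812, 0.110 and 0.0665). Tppp3 also lost its call without GRP-E1F2 library 2 (0.0525) or 18M saline library 3 (0.054), and Dctn3 without GRP-E1F2 library 1 (0.0542), 18M saline library 1 (0.0624) or 3 (0.0704), or 5M saline library 3 (0.0587).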

How the data were processed

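RNA-seq libraries were made from fragmented mRNA with random primers and the NEBNext Ultra II kit, per the labels' protocols. The submitters' processing notes name HISAT2, Picard, SAMtools 0.1.18, GATK and the build mm10. The authors deposited 1 table of TPM per gene and library; what tool and annotation gave these values, and how it dealt with strand and with reads shared by several genes, is not given in the sources. TPM keeps no record of depth, so no counting error can be given.

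Values were transformed to log2(TPM + 1), and the 13301 genes averaging 1 TPM or more were tested in 1 fit of all 9 libraries, using the limma package (version 3.58.1; R version 4.3.3) and its moderated test with a mean-variance trend. Tests were two-sided with Benjamini-Hochberg adjustment over the whole set. A gene rose or fell where its adjusted p was below 0.05. The method was first tested on simulated data in which all libraries varied independently. That test therefore does not cover groups in which 1 library takes a middle place. Members were read out of that table, with Python 3.11.15 (numpy 2.4.6, pandas 2.3.3, matplotlib 3.10.9, Biopython 1.88). Members and lists were chosen with earlier results of these data known.

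Named genes were the tubulins averaging 1 TPM or more, 12 neuronal motors (Kif1a, Kif1b, Kif3a to Kif3c, Kif5a to Kif5c, Kif17, Kif21a, Kif21b and Kif2a), the 6 largest called rises and falls of kinesins per comparison, the 3 highest mitotic and ciliary kinesins, and the 3 largest called rises and falls of the other microtubule genes. Outside that rule, and picked with their values known, are Tuba3a, Tuba3b, Tubb1, Kif2b, Kif12, Kif16b, Kif19a, Kif26a and Kif27.

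Marker lists of other cell types were read in the same way: neurons, striatal neurons, dividing, ciliated, choroid plexus, astrocyte, microglia, platelet, pituitary and retina lists besides those in the results. Some lists varied widely within groups. Summed striatal levels were 1039 to 3005 TPM with GRP-E1F2, 1361 to 1844 TPM in 18M saline and 417 to 1322 TPM in 5M saline. Choroid plexus levels were 21.03 to 959, 158 to 1247 and 2237 to 2295 TPM, and pituitary levels 3.83 to 880, 21.03 to 25.1 and 3.98 to 5.10 TPM, in the same order of groups. The other lists had, with GRP-E1F2 against 18M saline, 2 falls of 7 (neurons), 1 fall of 2 (dividing), 1 fall of 6 (ciliated), 3 falls of 6 (astrocytes), 2 rises of 5 (microglia), 0 of 1 (platelets; 0 at an unadjusted p under 0.05) and 1 rise of 1 (retina, Rlbp1).

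Start-site windows are RefSeq sequence on GRCm38.p6, and coding sequences and exon overlaps are from GENCODE M21 on GRCm38, the build also called mm10. Alternatives were a pseudocount of 0.1 or 5 TPM, a filter at 0 or 5 TPM, 2 other scalings (median-of-ratios, quantile), a replicate block, a fit restricted to the 2 groups in question, 2 libraries per group, and each library left out in turn.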

Additional observations from a re-analysis of the deposited data

How the results depend on the processing

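The number of tubulins and kinesins that passed between 18M and 5M saline was 4. It was 2 with a mean of at least 5 TPM, where 27 members were tested, 0 with 2 libraries per group, and 0 to 6 when each library was left out in turn. For GRP-E1F2 against saline at 18 months it was 13. It was 6 in a fit of only these groups, 0 with 2 libraries per group, and 5 to 13 when each library was left out. For 18M GRP-E1F2 against 5M saline it was 18. It was 5 with 2 libraries per group and 13 to 18 when each library was left out. The fit with 2 libraries per group had fewer libraries and lacked those that took a middle place. With 1 library left out, the count over all tested genes differed by library. For GRP-E1F2 against 18M saline it was 3060, 1345 and 2242 without 18M saline library 1, 2 and 3. Without GRP-E1F2 library 1, 2 and 3 it was 2596, 2572 and 1376. Between 18M and 5M saline it was 1330, 379 and 2568 without 18M saline library 1, 2 and 3. The cause of the loss was not tested. With the replicate number as a block the member counts were 5, 13 and 17. Same-numbered libraries deviated together with correlations of -0.06 to 0.13, so the numbers do not show a pairing. No log2 fold change that passed changed its sign under any alternative run. With no filter, Tubb1 and Kif18a passed between 18M and 5M saline, Kif12 and Kif18a for GRP-E1F2 against 18M saline, and Kif12, Kif18a, Kif19a and Kif27 for 18M GRP-E1F2 against 5M saline, among members otherwise untested, and Kif26a for the last 2 comparisons. That fit ended the calls of Kif1c (0.0744) and Kif13a (0.0566) with age, of Tuba8, Tubb4a, Tubb2a, Tubg1, Kif5a and Kif2a (0.0749 to 0.0947) for GRP-E1F2 against 18M saline, and of Tuba1a (0.0877), Tubb2a (0.0521) and Kif2a (0.0843) for 18M GRP-E1F2 against 5M saline. For GRP-E1F2 against 18M saline, a fit of only these groups ended the calls of Tuba8, Tubb4a, Tubb2a, Tubg1, Kif1a, Kif5a, Kif2a and Kif13b. Their limma adjusted p was 0.0535 to 0.0880 there, and Kif17 passed (0.0499). Between 18M and 5M saline, such a fit ended the calls of Kif1c (0.0517) and Kif22 (0.0503), while Tuba8 (0.0292) and Kif5a (0.0456) passed. Unknown depth limits what can be said of members under 1 TPM.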
